A study of Drosophila melanogaster with 6 samples.

Results

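Transcripts of the CYP4 clan of cytochrome P450 genes were examined by RNA sequencing of heads of male *Drosophila melanogaster*, aged 3 days and kept at 18 C. The members were the genes whose current FlyBase symbol starts with Cyp4 followed by a lower-case letter, or with Cyp311, Cyp312, Cyp313, Cyp316 or Cyp318. This gave 32 of the 16641 gene IDs in the deposited tables. The mutant group was 3 libraries of Adar5G1 flies, a stock labelled with y and sc as well, and the group set against it was 3 libraries of w1118 flies, which the submitters used as wild type. Adar encodes the fly enzyme that converts adenosines to inosines in RNA, and w1118 is a laboratory stock with a mutated white gene. Each genotype was 1 stock, so the effect of the Adar allele cannot be told apart from other differences between the stocks. No label states that the libraries of a group are separate biological samples, so the p-values reflect the variation among these 6 libraries alone, and that variation may be technical.

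Cytochrome P450 enzymes are heme proteins that insert an oxygen atom into lipids, hormones, pheromones and foreign compounds. Those of the CYP4 clan sit in the endoplasmic reticulum and draw electrons from the reductase Cpr, in some reactions with help from cytochrome b5. In vertebrates the family is best known for hydroxylating the end of fatty acid chains. In flies Cyp4g1 makes the hydrocarbons that waterproof the cuticle, in cells called oenocytes, whereas the substrates of most other members are not established.

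Each Adar5G1 library held 7189944 to 21639081 counts over genes, and each w1118 library 6872569 to 17709643. Adar had 5, 1 and 19 counts in Adar5G1 replicates 1, 2 and 3, against 2860, 6142 and 2602 in w1118 replicates 1, 2 and 3. Values per gene below are CPM, counts scaled to a common library total, after TMM scaling, a correction for library composition. Levels of different genes are compared only as CPM per kb of annotated exon. The scaling factor of w1118 replicate 3 was the lowest, 0.765, and the others lay between 0.941 and 1.25. The first principal component of the tested genes held 68.9% of the variance and placed Adar5G1 replicates 1, 2 and 3 at 29.3, 30.55 and 20.6 and the w1118 libraries between -29.8 and -23.0, so both libraries numbered 3 lay nearest to the other group. Head markers were present in all libraries: the neuron markers elav, nSyb, brp and Syt1 together had 3895 to 4787 CPM in Adar5G1 and 3342 to 3769 in w1118, and 5 photoreceptor markers had 17286 to 20137 CPM in Adar5G1 and 21888 to 23545 in w1118. Of the markers of tissues outside the head, the gut genes alphaTry and betaTry, the Malpighian tubule genes Uro and salt and the accessory gland gene Acp26Aa had 0 counts in every library. The summed gut list had 1.48 to 3.40 CPM in Adar5G1 and 1.97 to 5.505 in w1118, mostly Mal-A1, and the male reproductive tract list 1.18 to 1.49 CPM in Adar5G1 and 1.625 to 1.996 in w1118. In the Malpighian tubule list Irk2 had 59.6 to 71.3 CPM in Adar5G1 and 91.3 to 93.6 in w1118.

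A gene was tested if at least 3 libraries held 10 or more of its counts, and 24 of the 32 members met this. Of these, 7 rose in Adar5G1 and 2 fell, at a Benjamini-Hochberg adjusted p of at most 0.05 over 10214 genes in edgeR's quasi-likelihood test. Among all tested genes 8.63% rose and 5.14% fell, 13.8% in either direction. In whole heads, more or fewer cells of a type cannot be told apart from more or less RNA per cell. With upper-quartile factors 7 members rose and 3 fell, and over all genes 791 rose and 766 fell, against 881 and 525 with TMM. Of 7 fat body marker genes 6 rose as well, and their part in the calls was not tested. Rises were those of Cyp4p2, Cyp4e3, Cyp4d1, Cyp4p1, Cyp4ac1, Cyp4e1 and Cyp4p3, and falls those of Cyp4ac2 and Cyp4s3. At least 2-fold rises numbered 5 and falls 2, where 4.19% and 1.7% of all tested genes rose and fell by as much. The groups did not overlap for 10 of the tested members, 7 of them above and 3 below w1118. Among all tested genes 31.3% did not overlap, 17% above and 14.3% below. The log2 fold change was positive for 15 of the tested members, against 50% of all tested genes. Its median over the tested members was 0.21, with quartiles of -0.44 and 0.74, while the median of all tested genes was near 0. Cyp4p2, Cyp4e3 and Cyp4d1 passed the filter only through Adar5G1, so a difference was built into their being tested. Of the 19 members with 10 or more counts in every library, 4 rose and 2 fell. The matching share of all genes with 10 or more counts in every library was not computed. Without w1118 replicate 1, and likewise without w1118 replicate 2, 4 members rose and 1 fell. Over all genes 527 rose and 314 fell without replicate 1, and 598 rose and 394 fell without replicate 2, so calls were fewer over all genes too. Without both libraries numbered 3, 8 members rose and 2 fell, and over all genes 1155 rose and 630 fell.

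**Figure D1:**
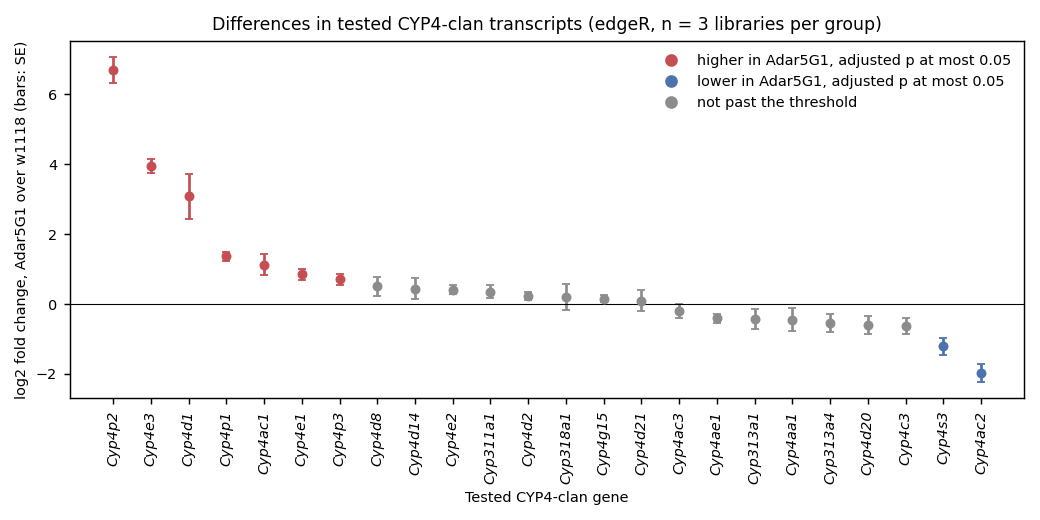
Log2 fold changes of the 24 tested CYP4-clan transcripts, Adar5G1 over w1118, with bars of 1 standard error (n = 3 libraries per group), red for rises, blue for falls and grey for genes not past the threshold. Cyp4p2, Cyp4e3 and Cyp4d1 stand above 3 on the log2 scale, and most other members lie between -1 and 1.

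All 3 genes of the Cyp4p group, neighbours within 6.90 kb on 2R (dm3 5125017 to 5131915), rose. Cyp4p1 (FBgn0015037, 2R:5127546-5129644) carried most of the group's transcripts and was the third most abundant member of the clan. It had 183, 168 and 191 CPM in Adar5G1 replicates 1, 2 and 3, against 74.1, 56.3 and 81.8 CPM in w1118 replicates 1, 2 and 3. Every mutant library was thus above every w1118 library, with standard deviations of 6.56% of the mean in Adar5G1 and 18.5% in w1118. The difference was 2.57-fold (log2 fold change 1.36, SE 0.13, edgeR adjusted p = 4.53e-04), and it kept its call in each of 15 alternative settings, with log2 fold changes from 1.21 to 1.48.

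Cyp4p2 (FBgn0033395, 2R:5125017-5127336) was nearly absent from w1118. It had 95, 48 and 132 counts in Adar5G1 replicates 1, 2 and 3, against 0, 1 and 1 counts in w1118 replicates 1, 2 and 3. In CPM the mutant libraries were close together at 7.01, 7.10 and 6.33. Relative to effective library sizes, the summed counts of the groups had a ratio of 119.9 (95% interval 32.9 to 995, for counting error only). The edgeR adjusted p was 2.29e-05, for a gene that passed the filter only through Adar5G1. Cyp4p3 (FBgn0033397, 2R:5129825-5131915) had 7.38, 5.62 and 6.18 CPM in Adar5G1 replicates 1, 2 and 3, against 3.95, 3.94 and 3.99 CPM in w1118 replicates 1, 2 and 3. Its groups did not overlap and the difference was 1.63-fold (0.70 on the log2 scale, SE 0.16, edgeR adjusted p = 0.0211). That call was lost with total counts only (adjusted p = 0.221) and without Adar5G1 replicate 1 or w1118 replicate 1, 2 or 3 or both libraries numbered 3 (adjusted p from 0.0509 to 0.0910), and over all alternatives its adjusted p ran from 0.0200 to 0.221. The share of Cyp4p1 in the group's summed level per kb was 92.9%, 93.1% and 94.0% in the mutant and 94.9%, 93.3% and 95.2% in w1118, and Cyp4p2 made up 2.94% to 3.72% in the mutant. Within 100 kb on either side of Cyp4p2, 5 of 27 tested genes outside the clan rose and 2 fell, with a median log2 fold change of 0.07. Over all tested genes 8.63% rose and 5.14% fell.

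The Cyp4e genes lie on different arms: Cyp4e1 and Cyp4e2 beside Cyp4ad1 on 2R, and Cyp4e3 on 2L. Cyp4e3 (FBgn0015035, 2L:9747839-9750071) had 17.7, 18.3 and 14.7 CPM in Adar5G1 replicates 1, 2 and 3, against 1.16, 1.22 and 0.756 CPM in w1118 replicates 1, 2 and 3. The underlying w1118 counts were 10, 22 and 7, and the gene passed the filter only through Adar5G1. This 15.45-fold difference (log2 fold change 3.95, SE 0.19, edgeR adjusted p = 1.19e-05) kept its call in each of the 15 alternatives, from 3.80 to 4.12. Cyp4e1 (FBgn0015034, 2R:4334956-4337250) had 20.01, 15.5 and 13.7 CPM in the Adar5G1 libraries in replicate order, against 8.94, 8.76 and 9.50 CPM in w1118. It rose 1.81-fold (0.86, SE 0.16, edgeR adjusted p = 0.00882) and also kept its call throughout.

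Its direct neighbour Cyp4e2 (FBgn0014469, 2R:4332065-4334669), the more abundant gene of the pair, had 88.1, 81.8 and 69.9 CPM in Adar5G1 and 57.9, 50.3 and 71.8 CPM in w1118. The groups overlapped through their libraries numbered 3, and the log2 fold change of 0.42 (SE 0.14) did not pass (edgeR adjusted p = 0.0912). Without Adar5G1 replicate 3 it was 0.51 (adjusted p = 0.0470), without w1118 replicate 3 it was 0.56 (adjusted p = 0.0230), and without both 0.65 (adjusted p = 0.00597), where all alternatives ran up to an adjusted p of 0.636. Cyp4ad1 (FBgn0033292), at the edge of the same group, summed to 5 counts in Adar5G1 and 2 in w1118.

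In the Cyp4ac group, 3 neighbours within 6.33 kb on 2L (dm3 5264001 to 5270329), adjacent genes moved in opposite directions. Cyp4ac1 (FBgn0031693, 2L:5264001-5265899) had 33.15, 31.2 and 20.75 CPM in Adar5G1 replicates 1, 2 and 3, against 9.52, 9.31 and 20.3 CPM in w1118 replicates 1, 2 and 3. Both libraries numbered 3 lay almost at the same level, and the groups just failed to overlap. Cyp4ac1 rose 2.19-fold (log2 fold change 1.13, SE 0.31, edgeR adjusted p = 0.0462). The call was lost without Adar5G1 replicate 1 or 2 or w1118 replicate 1 or 2 (log2 fold changes from 0.90 to 1.06, adjusted p from 0.109 to 0.157), and over all alternatives the adjusted p ran from 3.28e-04 to 0.157. Without w1118 replicate 3 the log2 fold change was 1.58.

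Cyp4ac2 (FBgn0031694, 2L:5266392-5268455) had 1.92, 2.66 and 2.35 CPM in Adar5G1 replicates 1, 2 and 3, against 7.43, 7.32 and 12.2 CPM in w1118 replicates 1, 2 and 3. It fell 3.905-fold in the mutant (log2 fold change -1.97, SE 0.26, edgeR adjusted p = 0.00186) and kept its call in each of the 15 alternatives, from -2.11 to -1.70. Cyp4ac3 (FBgn0031695, 2L:5268498-5270329) had 4.65, 3.70 and 6.18 CPM in Adar5G1 and 5.57, 6.43 and 5.29 CPM in w1118, with overlapping groups (-0.21, SE 0.20, edgeR adjusted p = 0.585). Of the level per kb summed over these neighbours, Cyp4ac2 made up 4.70%, 6.90% and 7.77% in the mutant libraries, against 32.1%, 30.9% and 31.6% in the w1118 libraries. The sum of the group was 39.7, 37.6 and 29.3 CPM in Adar5G1 and 22.5, 23.1 and 37.8 CPM in w1118, and these ranges overlap. Reads that match neighbouring copies equally well were not counted, so the separate counts of tandem copies are uncertain.

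**Figure D2:**
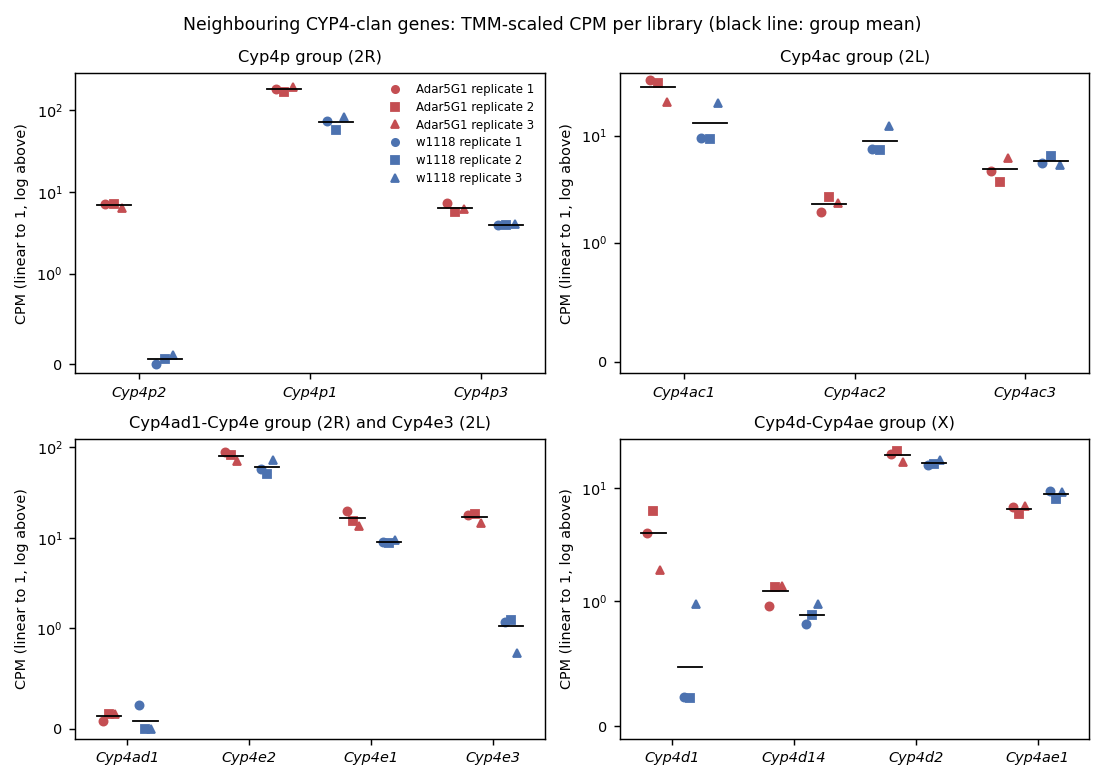
TMM-scaled CPM of neighbouring CYP4-clan genes in each library, with Adar5G1 in red on the left, w1118 in blue on the right and a black line at each group mean (the axis is linear up to 1 CPM and logarithmic above). The group lines of Cyp4p2, Cyp4e3 and Cyp4d1 lie furthest apart, and Cyp4ac1 and Cyp4ac2 differ in opposite directions.

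On the X chromosome, 4 members lie within 21.9 kb (dm3 2053178 to 2075031), starting 385 kb from the start of Adar (X:1667758-1682098). Only Cyp4d1 among them passed the test. Cyp4d1 (FBgn0005670, X:2053178-2056213) had 54, 42 and 39 counts in Adar5G1 replicates 1, 2 and 3, against 2, 4 and 9 counts in w1118 replicates 1, 2 and 3. In CPM this was 3.99, 6.21 and 1.87 in Adar5G1 against 0.232, 0.222 and 0.971 in w1118, so that the libraries numbered 3 were again the closest to the other group. The difference was 8.49-fold (log2 fold change 3.09, SE 0.65, edgeR adjusted p = 0.0155), and the gene passed the filter only through Adar5G1. The call was lost without w1118 replicate 1 (2.86, adjusted p = 0.0650) or w1118 replicate 2 (2.56, adjusted p = 0.0680), and the log2 fold change was 3.98 without w1118 replicate 3. Its adjusted p ran from 1.78e-09 to 0.0680 over the alternatives.

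The other members of the X group showed small differences that did not pass. Cyp4ae1 (FBgn0015036, X:2073040-2075031) had 6.79, 5.91 and 6.85 CPM in Adar5G1 and 9.40, 7.98 and 9.175 CPM in w1118. Its groups did not overlap, but the log2 fold change of -0.41 (SE 0.13) had an edgeR adjusted p of 0.0795. With upper-quartile factors it passed (-0.47, adjusted p = 0.0452), and over all alternatives the adjusted p ran from 0.0452 to 0.819. Cyp4d2 averaged 19.5 ± 2.19 CPM in Adar5G1 and 16.6 ± 0.864 in w1118, and Cyp4d14 averaged 1.21 ± 0.218 CPM in Adar5G1 and 0.890 ± 0.0794 in w1118 (SD, n = 3 each). Of 35 tested genes outside the clan within 100 kb of Cyp4d1, 4 rose and 3 fell, with a median log2 fold change of 0.06. The shares over all tested genes were 8.63% and 5.14%.

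Cyp4s3 (FBgn0030615, X:15007335-15010575) was the other member that fell. It had 3.03, 2.96 and 3.07 CPM in Adar5G1 replicates 1, 2 and 3, against 8.59, 7.71 and 4.53 CPM in w1118 replicates 1, 2 and 3. The mutant libraries lay within a narrow range below all w1118 libraries, of which replicate 3 was the lowest. Cyp4s3 fell 2.30-fold (log2 fold change -1.20, SE 0.24, edgeR adjusted p = 0.0129). The call was lost narrowly without w1118 replicate 1 (-1.07, adjusted p = 0.05055) or w1118 replicate 2 (-1.11, adjusted p = 0.0504), and the adjusted p ran from 7.90e-04 to 0.05055 over the alternatives.

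The pair of most abundant members, Cyp313a1 and Cyp4d21, did not pass the test. Cyp313a1 (FBgn0038236, 3R:10346771-10348786) ranked first with a mean of 149.1 CPM per kb over the 6 libraries. It had 272, 131 and 212.5 CPM in Adar5G1 replicates 1, 2 and 3, against 214, 229 and 393 CPM in w1118 replicates 1, 2 and 3 (log2 fold change -0.44, SE 0.29, edgeR adjusted p = 0.409). Cyp4d21 (FBgn0031925, 2L:7605600-7607701), also known as sxe1 and described as male-biased in the fat body of the head, ranked second with 129.1 CPM per kb. It had 325.5, 156 and 246.5 CPM in Adar5G1, against 160.4, 198 and 324 CPM in w1118 in replicate order (0.10, SE 0.30, edgeR adjusted p = 0.887). Both genes were highest in replicate 1 and lowest in replicate 2 of Adar5G1, and highest in replicate 3 of w1118. Of the 24 tested members, 17 were highest in replicate 3 within w1118. Within Adar5G1, 7 were highest in replicate 1 and 8 lowest in replicate 2. Their standard deviations were 34.5% and 35.0% of the mean in Adar5G1 and 35.5% and 37.6% in w1118, while those of Cyp4p1 were 6.56% in Adar5G1 and 18.5% in w1118. The log2 fold change of Cyp4d21 changed sign to -0.17 without Adar5G1 replicate 1 and to -0.12 without w1118 replicate 1.

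Cyp4g15 (FBgn0030304, X:11371091-11377139), which is expressed in the nervous system, ranked number 5 at 21.3 CPM per kb, behind Cyp4e2 at 36.9. It had 58.8, 65.1 and 52.2 CPM in Adar5G1 replicates 1, 2 and 3, against 50.85, 51.8 and 55.4 CPM in w1118 replicates 1, 2 and 3. The groups overlapped (log2 fold change 0.15, SE 0.09, edgeR adjusted p = 0.366). The clan spanned a wide range of levels, with a median of 2.95 CPM per kb over the 32 members.

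**Figure D3:**
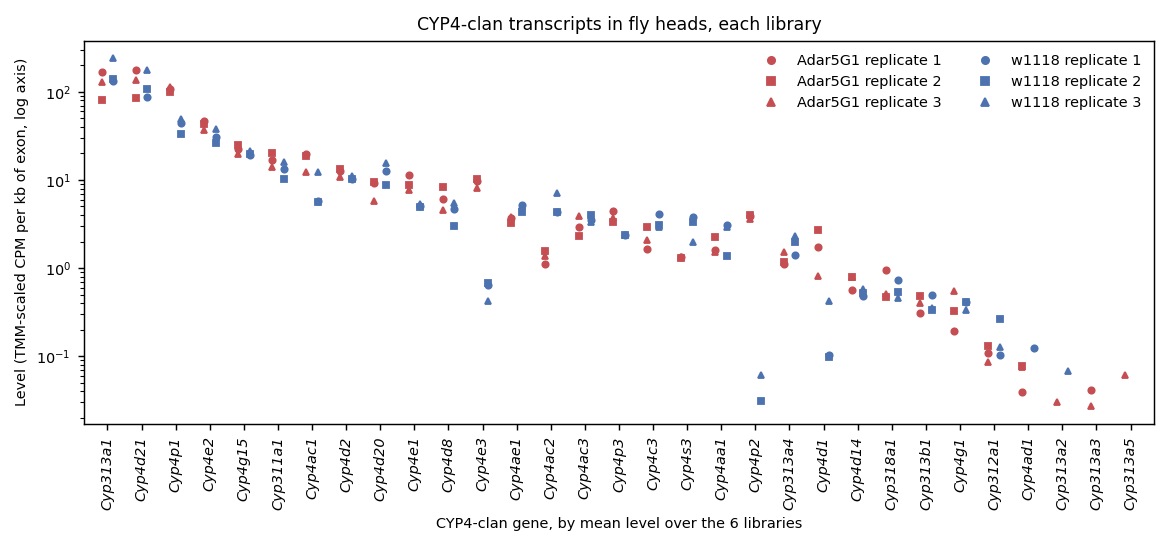
Level of 31 CYP4-clan genes in each library as TMM-scaled CPM per kb of exon on a log axis, ordered by their mean over the 6 libraries, with Adar5G1 in red on the left and w1118 in blue on the right; libraries with 0 counts, and Cyp316a1 with 0 in all, are not drawn. Cyp313a1, Cyp4d21 and Cyp4p1 lead, and the blue points of Cyp4e3, Cyp4p2 and Cyp4d1 lie below all their red points.

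The make-up of the clan's transcripts was also compared, as shares of Cyp4p1, Cyp313a1 and Cyp4d21 with no test. Those of Cyp4p1 and Cyp313a1 did not overlap between groups, and those of Cyp4d21 overlapped. Cyp4p1 made up 17.15%, 22.2% and 21.6% of the summed level per kb in the Adar5G1 libraries, against 11.1%, 8.37% and 7.81% in the w1118 libraries. Cyp313a1 made up 26.4%, 17.9% and 24.9% in Adar5G1 and 33.3%, 35.3% and 38.8% in w1118. Cyp4d21 made up 28.1%, 19.0% and 25.7% in Adar5G1 and 22.2%, 27.2% and 28.5% in w1118. A share also depends on the levels of the other members, and the CPM of Cyp313a1 itself overlapped between groups. The summed level itself overlapped between groups, at 636, 451 and 526 CPM per kb in Adar5G1 and 397, 400.4 and 624 in w1118. Without Cyp313a1 and Cyp4d21 it was 289.8, 284 and 260.1 CPM per kb in Adar5G1, against 176.5, 150.3 and 204 in w1118, a description chosen after the values were seen. This remainder includes Cyp4p1, which averaged 107.7 CPM per kb in Adar5G1 and 42.1 in w1118. Cyp4p1 made up 113.9 of the 260.1 CPM per kb in Adar5G1 replicate 3 and 48.7 of the 204 in w1118 replicate 3. Less was thus left in that Adar5G1 library than in that w1118 library, so the groups overlapped without Cyp4p1.

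The remaining 7 tested members did not pass either. Their log2 fold changes ranged from -0.62 for Cyp4c3 to 0.51 for Cyp4d8. Cyp4d20 averaged 14.9 ± 3.94 CPM in Adar5G1 and 22.4 ± 6.17 in w1118, and Cyp4c3 averaged 4.26 ± 1.25 CPM in Adar5G1 and 6.37 ± 1.23 in w1118 (SD, n = 3 each). Cyp4d8, the neighbour of Cyp316a1 on 3L, had 9.52, 13.01 and 7.19 CPM in Adar5G1 and 7.43, 4.71 and 8.53 CPM in w1118, which overlap. Cyp311a1, described in lipid metabolism of the larval midgut, averaged 25.95 ± 4.94 CPM in Adar5G1 and 20.25 ± 4.415 in w1118. Its log2 fold change was 0.35 (edgeR adjusted p = 0.287), and 0.65 (adjusted p = 0.0461) without both libraries numbered 3, where its adjusted p otherwise ran up to 0.822 over the alternatives. Its neighbour Cyp318a1, Cyp4aa1 and Cyp313a4 had mean levels of 5.18 CPM or less in both groups, all with overlapping libraries.

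Members below the filter numbered 8. Cyp316a1 had 0 counts in every library. The neighbours Cyp313a2, Cyp313a3 and Cyp313a5 on 3R had 2, 2 and 2 counts over the 6 libraries. Cyp4g1, the cuticular hydrocarbon enzyme (FBgn0010019, X:361090-363368), was also among them. It had 6, 5 and 26 counts in Adar5G1 replicates 1, 2 and 3, against 8, 17 and 7 counts in w1118 replicates 1, 2 and 3. This amounted to 0.809 ± 0.406 CPM in Adar5G1 and 0.876 ± 0.104 CPM in w1118 (SD, n = 3 each), so few of its transcripts were counted in heads of either stock. Cyp313b1 had 34 counts over the Adar5G1 group and 29 over w1118, and Cyp312a1 had 14 and 23.

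Among the redox partners of these enzymes, 0 of 3 passed with edgeR, while 2 were higher at an unadjusted p under 0.05, 1 passed with DESeq2 and 0 with limma-voom. Their median log2 fold change was 0.35. The reductase gene Cpr had 208, 201 and 148 CPM in Adar5G1 and 136, 138.5 and 162 CPM in w1118 (log2 fold change 0.35, SE 0.13, unadjusted p = 0.0302, edgeR adjusted p = 0.138). The cytochrome b5 gene Cyt-b5 had 112, 138 and 100.1 CPM in Adar5G1 and 86.4, 64.2 and 91.0 CPM in w1118, with no overlap (0.54, SE 0.16, unadjusted p = 0.00816, edgeR adjusted p = 0.0566), and is named after its values were seen.

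Of 16 tested genes of fatty acid and hydrocarbon synthesis 3 rose and 2 fell with edgeR, with a median log2 fold change of 0.06. Over all tested genes 8.63% rose and 5.14% fell. DESeq2 called 4 of the list higher and 4 lower, and limma-voom 3 and 2. At an unadjusted edgeR p under 0.05, 6 were higher and 5 lower. The fatty acid synthase gene FASN2 had 6.35, 10.05 and 3.88 CPM in Adar5G1 and 1.39, 1.11 and 1.403 CPM in w1118 (2.32, SE 0.39, edgeR adjusted p = 0.00565). CG33110, an elongase-family gene, averaged 148 ± 13.45 CPM in Adar5G1 and 50.4 ± 15.1 in w1118 (SD, n = 3 each). CG10097, a fatty acyl reductase-family gene, averaged 4.10 ± 0.992 CPM in Adar5G1 and 10.2 ± 0.900 in w1118 (-1.30, edgeR adjusted p = 0.00271). The other edgeR calls, named after their values were seen, were a rise of the desaturase gene Desat1 (1342 ± 465 CPM in Adar5G1 and 525 ± 164.5 in w1118) and a fall of CG5065, a reductase-family gene (183 ± 6.35 CPM in Adar5G1 and 255 ± 48.99 in w1118). Of 9 regulators of xenobiotic and hormone responses 2 rose, the ecdysone receptor gene EcR (1.33-fold) and Keap1 (1.275-fold), which encodes the inhibitor of the factor made from cnc. DESeq2 called 1 of the regulators higher and limma-voom 2. With edgeR, DESeq2 and limma-voom 0 of them fell, and 1 was lower at an unadjusted p under 0.05. Their median log2 fold change was -0.03.

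Fat body is a tissue in which several P450 genes are expressed, and 6 of 7 fat body markers rose in Adar5G1. Among all tested genes 8.63% rose and 5.14% fell. The summed level of the 7 markers was 5507 to 7748 CPM in Adar5G1, against 2846 to 4457 CPM in w1118. The lipid droplet gene Lsd-1 had 180.0, 283 and 116.5 CPM in Adar5G1 and 17.8, 20.3 and 30.1 CPM in w1118, and the lipoprotein gene apolpp had 5166, 4914 and 4204 CPM in Adar5G1 and 2606, 2313 and 3645 CPM in w1118. Lsp2, the marker that did not pass, had 108, 107 and 26.4 CPM in Adar5G1 and 53.9, 14.9 and 76.6 CPM in w1118. Cyp4d21, the member described in head fat body, had overlapping groups, and the part of fat body in the calls was not tested. In other marker lists 1 of 4 neuron genes rose, and 1 of 5 photoreceptor, 1 of 8 glial and 1 of 3 muscle genes fell with edgeR. DESeq2 and limma-voom each gave 3 photoreceptor genes lower and the same counts as edgeR for neuron, glial and muscle genes. Of 4 antennal and 4 hemocyte genes 0 passed with edgeR or limma-voom, while 1 of each fell with DESeq2, and 2 and 1 at an unadjusted p under 0.05. The single tested genes of the gut and male reproductive tract lists, Mal-A1 and betaTub85D, did not pass, and Irk2, the single tested gene of the Malpighian tubule list, fell.

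**Figure D4:**
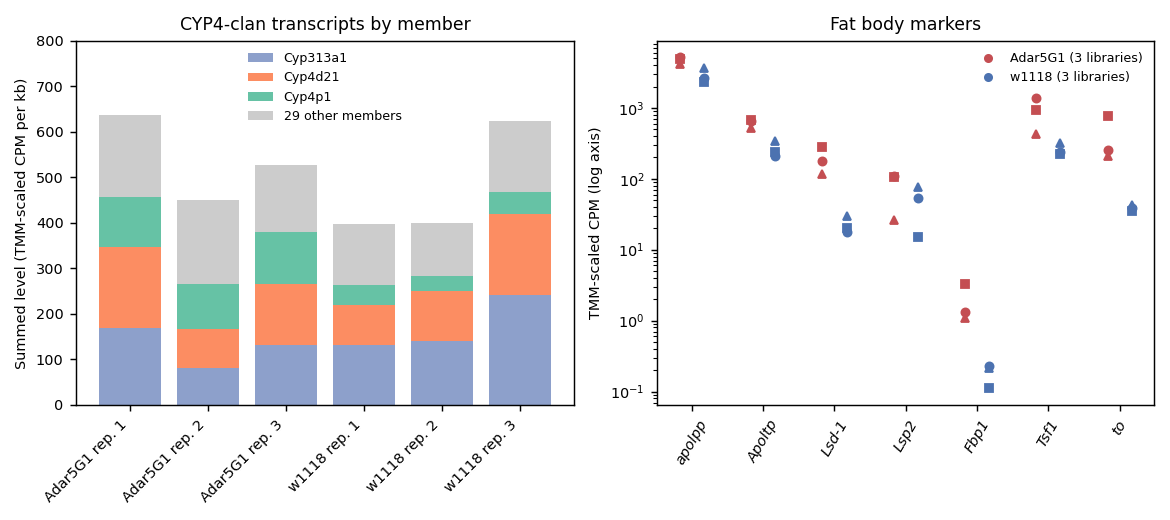
Left, level per kb summed over the 32 CYP4-clan genes in each library, with bars from 0 split into Cyp313a1, Cyp4d21, Cyp4p1 and the 29 other members; right, TMM-scaled CPM of 7 fat body markers on a log axis, Adar5G1 in red and w1118 in blue, with the same marker shapes for replicates as in the other plots. The Cyp4p1 segment is taller in each Adar5G1 library, and 6 of the markers are higher in every Adar5G1 library.

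By chromosome arm, 4 of 6 tested members on 2R rose, and 0 fell with edgeR, DESeq2 or limma-voom or at an unadjusted p under 0.05. On 2L 2 of 5 rose and 1 fell, and on X 1 of 8 rose and 1 fell. On 3L 0 of 2 and on 3R 0 of 3 passed with edgeR, DESeq2 or limma-voom, and 1 on each was lower at an unadjusted p under 0.05. Of all tested genes, 15.5% on 2R, 15.9% on 2L, 10.8% on X, 12.7% on 3L and 13.6% on 3R were called in either direction. By direction, 198 of 2076 genes rose and 124 fell on 2R, 189 of 1812 and 99 on 2L, and 118 of 1652 and 60 on X. The counts were 153 of 1947 and 95 on 3L, and 211 of 2504 and 130 on 3R. The rises on 2R were those of the 3 neighbouring Cyp4p genes and, at a separate site, of Cyp4e1. Its neighbour Cyp4e2 did not pass. In the other P450 clans 9 of 31 tested CYP3-clan genes rose and 8 fell, 3 of 10 mitochondrial-clan genes rose and 1 fell, and 1 of 2 CYP2-clan genes rose. Shares called in either direction were 37.5% in the CYP4 clan, 54.8% in the CYP3 clan, 40% in the mitochondrial clan and 50% in the CYP2 clan. Of all tested genes 13.8% were called, 8.63% higher and 5.14% lower. The median log2 fold changes were -0.11 in the CYP3 clan and near 0 in the mitochondrial clan, and differences between clans were not tested.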

How the data were processed

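RNA from heads was read as 75-bp paired ends, per the labels' protocols, in 6 libraries. The molecule is labelled polyA RNA, while the protocol describes depletion of ribosomal RNA. The authors deposited raw counts of fragments per gene. Per the file headers, they used featureCounts 1.4.5-p1 as reverse-stranded on FlyBase release 5.53 exons, a fragment counted for each gene it overlapped, without multi-mapping reads. The submitters' processing notes name TopHat and dm3 (BDGP5) with no TopHat version. 0 members shared exon bases with another gene on their strand. Current symbols were found for 15924 of 16641 gene IDs.

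The row without a gene ID (0.369% to 0.633% of counts) was left out. Testing used edgeR 4.0.16 under R 4.3.3, on genes with 10 or more counts in at least 3 libraries, with TMM factors, the quasi-likelihood test, no covariate, and a threshold of 0.05 on the adjusted p. Standard errors were approximated from the log2 fold change and its F statistic. Within groups, library pairs differed by a chi-square per degree of freedom of 25.2 to 250.6, more than counting error alone gives. Each library was treated as 1 replicate, though the chi-square does not show that the libraries are separate biological samples. Members and lists were chosen with earlier results of these data known. Named were the called members, the 5 with the highest level per kb, tandem neighbours within 20 kb, members below the filter, and from each pathway list up to 3 called genes or, with none called, the most abundant one. In these lists 47 of 51 names matched distinct genes. The result of 1 pathway list is not reported here. Alternatives were RLE, upper-quartile and unscaled totals, no filter, filterByExpr, DESeq2 1.42.0, voom in limma 3.58.1, a replicate block, leaving out libraries, and an adjusted p of 0.01. Fits that left out libraries kept the genes that passed the filter with all libraries. The edgeR script was tested on simulated data with 200 changed genes per draw. It recovered 25.8% of 1.5-fold, 80.5% of 2-fold and 94.7% of 4-fold changes. Of its calls 10.4%, 6.94% and 7.04% were false at these folds, so most 1.5-fold changes were missed.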

Additional observations from a re-analysis of the deposited data

How the results depend on the processing

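Over 15 settings, called members kept their direction in all 135 comparisons and lost the call in 17, in Cyp4ac1, Cyp4p3, Cyp4d1 and Cyp4s3. The other 5 called members kept it in each. With upper-quartile factors 7 members rose and 3 fell, and over all genes 791 rose and 766 fell, against 881 and 525 with TMM. With total counts only, 556 genes rose and 215 fell. Leaving out 1 library at a time gave 4 to 8 members higher and 1 to 2 lower, and 527 to 1000 genes higher and 314 to 499 lower. At an adjusted p of 0.01, 4 members rose and 1 fell, and over all genes 445 rose and 249 fell. Cyp4d21 changed sign without Adar5G1 replicate 1 (-0.17) or w1118 replicate 1 (-0.12), and Cyp318a1 without Adar5G1 replicate 1 (-0.19), with leave-one-out ranges up to 0.44 for Cyp4d21 and 0.42 for Cyp318a1. Of members not past the threshold, 5 comparisons of 225 passed it. The cause was not tested. With the replicate block 4 members rose and 2 fell, and over all genes 464 rose and 274 fell. Calls lost with the block were those of Cyp4ac1 (1.17, edgeR adjusted p = 0.133), Cyp4p3 (0.68, adjusted p = 0.0852) and Cyp4d1 (3.12, adjusted p = 0.0578). The replicate numbers share only a number: same-numbered libraries had correlations of deviations of 0.135, -0.194 and -0.293 for numbers 1, 2 and 3, and Adar5G1 replicates 2 and 3 correlated best with w1118 replicates 3 and 2. Counts under 10 in w1118 limit the precision of Cyp4p2 and Cyp4d1, and of Cyp4e3 with 7 counts in w1118 replicate 3.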
